A study of Arabidopsis thaliana with 4 samples.

Results

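The wells TA52A01 to TA66H12 of a spotted Arabidopsis thaliana array form a mixed zone, in which stretches of high and low H3K9me2 ratio alternate and many features lie in between. The zone has 15 plates of 96 wells, and each of its 1440 features was measured on every array, out of 21727 measured features in all (6.63%). It was selected on the measured ratios themselves: the plates were grouped by how many of their features had a high ratio, and the zone was set off from a denser block before it (TA37 to TA51) and a sparser one after it (TA67 to TA99). The values below therefore describe the zone and carry no test of it. The features have no gene name or genome position in the files used here, and wells are read along the rows of each plate.

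The material was whole seedlings of the col-0 ecotype, 11 days old, grown in liquid medium without treatment. DNA from chromatin immunoprecipitated with an H3K9me2 antibody (IP) was hybridised against input DNA of the same preparation, on 4 arrays in 1 group. The labels number 2 preparations, I and II, called replicate 1 and replicate 2 here, each on a pair of arrays with Cy3 and Cy5 exchanged. Paired columns held the same value for all 21727 measured features, so each replicate counts as 1 sample (n = 2). Nothing in the labels says that the preparations came from separate cultures, so their spread may be technical. Whole seedlings mix many tissues, and a ratio averages over all of their cells.

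H3K9me2 is the dimethylated form of a lysine in the tail of histone H3. In Arabidopsis it is written mainly by KRYPTONITE (SUVH4) and related SUVH methyltransferases. It is kept in a loop with CHROMOMETHYLASE3, which binds the mark and methylates cytosines in the CHG context, where H stands for any base but G. The mark is known for covering silent transposons and other repeats, which are most abundant around centromeres, while most expressed genes lack it. Chromatin at the flanks of such regions is known to mix transposons with genes.

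Values are given in the deposited log-scale units, above or below the median of all measured features of the same replicate. The sources used here state neither the log base nor the direction of the ratio, and a ratio that is the same under exchanged dyes leaves its sign unsettled. Features are therefore called higher or lower, not enriched or depleted. By the mean of both replicates, a feature is called low under 0.5 units, intermediate from 0.5 to under 1.5 units, and high from 1.5 units. A high-ratio feature lies at least 1 unit above the median in each replicate.

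Of the 1440 features, 365 were high (25.3%), 371 were intermediate (25.8%) and 704 were low (48.9%). Over all measured features, 16.4% were high and 10.9% intermediate. High-ratio features numbered 443 (30.8%), against 19.2% of all measured features. All 365 high features met this second rule, and so did 78 of the 371 intermediate ones. On the values as deposited, taken from 0 and not from the median, 244 features were intermediate and 144 met the high-ratio rule. Since the zone was chosen for these shares, nothing is read from their distance to the background.

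The levels of the classes were set by the limits, and their medians show where the bulk of each lay. High features had a median of 2.46 units in replicate 1 (quartiles 2.09 and 2.91) and 2.06 units in replicate 2 (1.77 and 2.39). Intermediate features had medians of 0.83 and 0.90 units, and low features had medians of -0.02 and -0.01 units. The values formed a main peak, highest between -0.25 and 0 units with 14.5% of the features, and a second rise, highest between 2 and 2.25 units with 4.9%. Between them the shares fell bin by bin, to 2.8% in the last bin under 1.5 units. The intermediate class thus held mostly the upper slope of the main peak, with 254 of its features under 1 unit, and no peak of its own.

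**Figure D1:**
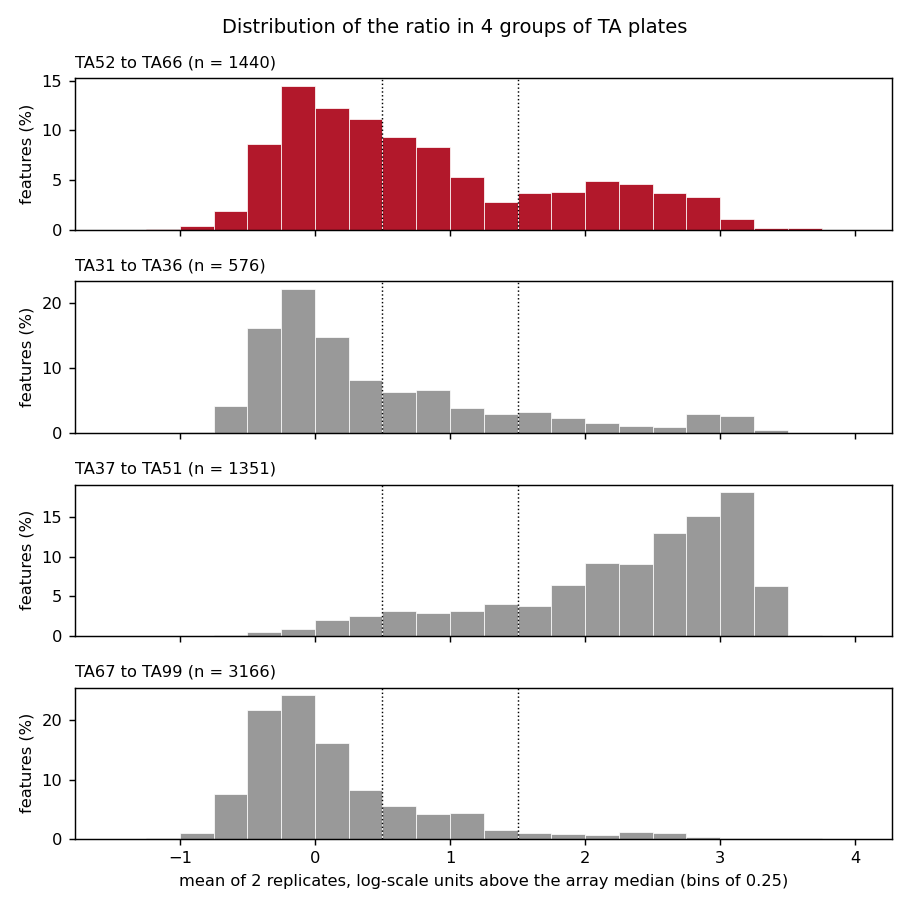
Share of features (vertical axes, %) in bins of 0.25 log-scale units of the mean of both replicates above the array median (horizontal axis), for TA52 to TA66 at the top and then TA31 to TA36, TA37 to TA51 and TA67 to TA99. Dotted lines mark the class limits at 0.5 and 1.5 units. In TA52 to TA66 the bins from 0.5 to 1 unit hold 9.3% and 8.3% of the features, on the slope between the main peak and the second rise.

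Few features sat close enough to a limit for a small shift to reclass them at the upper one, and more did at the lower one. Within 0.1 units of the limit at 0.5 lay 104 features, and within 0.1 units of that at 1.5 lay 29. The nearest features on the upper side of 0.5 both had means of 0.501 units, and the nearest under it both had means of 0.499 units. At the limit of 1.5, the nearest above had means of 1.51 units and the nearest below had means of 1.49 and 1.46 units. At the outer borders, the first well of the zone, TA52A01, lay at 3.47 units and the last well before it, TA51H12, at 3.27 units. TA66H12, the last well, lay at -0.21 units, and TA67A01 after it at -0.11 units. The zone thus opened inside a high stretch and closed inside a low one. High-ratio features made up 78.1% of plate TA51 just before it and 8.33% of plate TA67 just after it.

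The shares of the plates did not decline evenly along the zone but alternated between rich and poor plates. TA52, at the start, had 30.2% high-ratio features and TA66, at the end, had 8.33%. The highest share was that of TA57 in between, at 61.5%, followed by TA58 with 52.1% and TA62 with 49.0%. Poor plates lay between the rich ones: TA56 had 21.9%, TA60 had 15.6% and TA61 had 11.5%.

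Plate medians followed the same alternation in both replicates. TA57 had a median of 1.53 units in replicate 1 and 1.42 units in replicate 2, and TA58 had 1.20 and 1.23 units. TA62 had 1.12 and 1.03 units. At the other end, TA61 had medians of -0.07 and 0.01 units, and TA66 had 0.04 and 0.11 units. The replicates' medians were furthest apart in TA64, where replicate 2 lay 0.32 units above replicate 1. This gap was small beside the 1.60 units that separated TA57 from TA61 in replicate 1.

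Read in order and grouped after the plate values were seen, the zone had richer and poorer segments. From TA52 to TA55, 31.8% of the features were high-ratio features. This was near the zone's own 30.8%, and of these plates only TA53 (42.7%) lay above it. The rich segments were TA57 to TA59 with 49.0% and TA62 to TA63 with 46.4%. Between and after these 3 segments lay TA56 with 21.9%, TA60 to TA61 with 13.5% and TA64 to TA66 with 15.3%. By replicate, the 1-unit limit was passed by 52.4% and 52.1% of the features from TA57 to TA59, and by 18.2% of those from TA60 to TA61 in both. Between segments the intermediate share moved less than the high share. It was 27.1% from TA57 to TA59, 26.0% from TA60 to TA61 and 29.7% from TA62 to TA63, where high features made up 41.7%, 8.33% and 39.1%. In TA52 to TA55, TA56 and TA64 to TA66 it was 26.8%, 20.8% and 21.9%, beside 27.6%, 14.6% and 11.8% high features. By plate the intermediate share ran from 16.7% to 46.9%, and the high share from 4.17% to 50%.

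**Figure D2:**
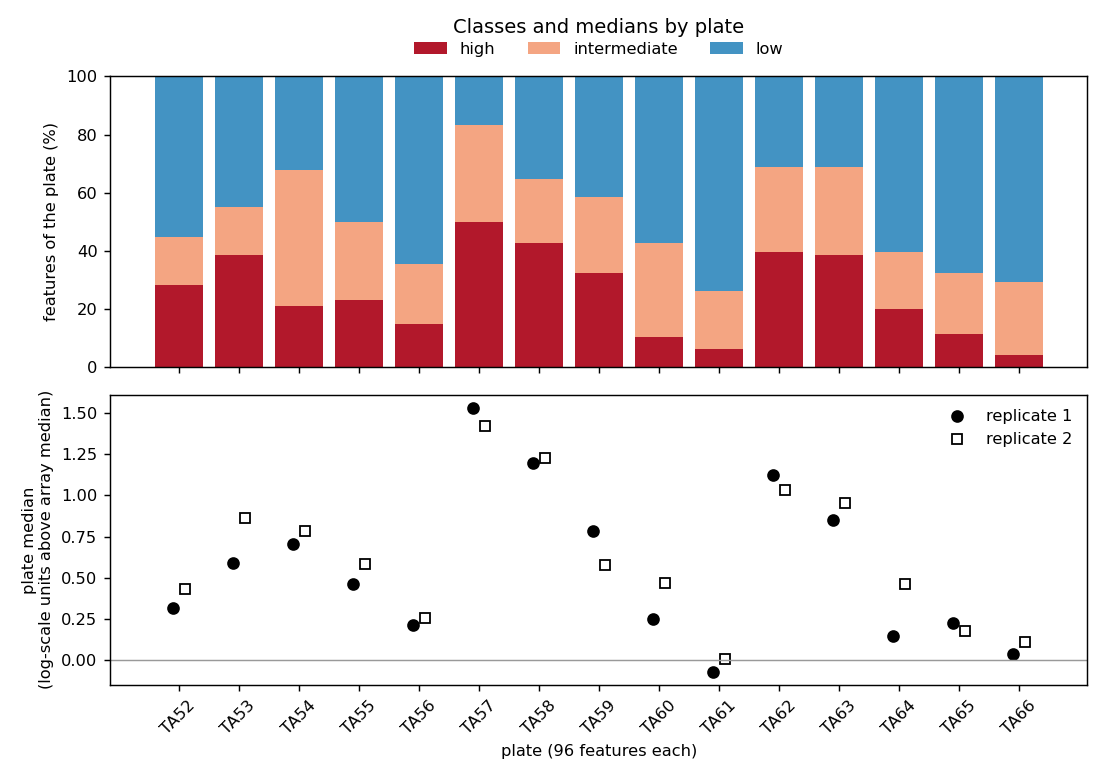
Upper panel: share of each plate's 96 features (%) that were high, intermediate or low by the mean of both replicates. Lower panel: plate median in replicate 1 (filled circles) and replicate 2 (open squares), in log-scale units above the array median. Medians range from -0.07 in TA61 to 1.53 in TA57 in replicate 1, and both replicates place TA57 highest and TA61 lowest.

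TA54 differed from the other plates in its composition. It held 45 intermediate features (46.9%) beside 20 high and 31 low ones, while the other 14 plates held 16 to 32 intermediate features each. Its median was 0.71 units in replicate 1 and 0.79 units in replicate 2, near that of TA59 (0.79 and 0.58 units). TA59 reached its level with 31 high, 25 intermediate and 40 low features. Similar plate medians therefore came from different mixtures. In TA54 the intermediate features had medians of 0.77 units in replicate 1 and 0.84 units in replicate 2. Its low features had medians of 0.17 and 0.12 units, each above the zone's own. Those of TA59 lay at a similar level (0.19 and 0.12 units), so this did not set TA54 apart.

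The level of the high features themselves varied between plates less than their number did. Their median ran from 2.19 units in TA60 to 3.06 units in TA59 in replicate 1, and from 1.79 to 2.42 units for the same plates in replicate 2. TA66 had only 4 high features, at medians of 2.29 and 1.84 units, and TA61 had 6, at 2.52 and 1.93 units. Position on the plate went with smaller differences: by plate column, 22.5% to 27.5% of the features were high, and by plate row 22.8% to 30.6%, apart from row E with 16.1%.

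High-ratio features were gathered in runs. They formed 94 stretches of consecutive wells, of which 47 had at least 3 wells and held 385 of the 443 features (86.9%). Another 36 high-ratio features had no high-ratio feature beside them. Runs of at least 10 wells numbered 10. On uncentred values there were 21 runs of at least 3 wells, the longest of 13 wells.

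The longest run, TA56H01 to TA57B04, had 28 wells and lay 2.08 ± 0.26 units above the median (SD, n = 2). Its mean was 2.26 units in replicate 1 and 1.89 units in replicate 2, and its wells spanned 1.04 to 3.06 units in replicate 1. TA63A04 to TA63C02 had 23 wells at 2.53 ± 0.36 units, with replicate means of 2.78 and 2.27 units. TA58C06 to TA58D12 had 19 wells at 1.95 ± 0.37 units. TA57E04 to TA57F08 had 17 wells at 2.62 ± 0.27 units, and its lowest well still reached 1.74 units in replicate 1 and 1.66 units in replicate 2. Of these 4 runs, 3 touched TA57 or its neighbour TA58, the plates with the largest shares.

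The 16 wells from TA52A01 to TA52B04, at 2.38 ± 0.35 units, were the end of a run that began outside the zone. With the wells before them they made a run of 20 wells from TA51H09, at a mean of 2.47 units. The highest features of the zone lay there. TA52A03 had 4.07 units in replicate 1 and 3.35 units in replicate 2 (3.71 ± 0.51, SD, n = 2). TA52A02 beside it had 4.07 and 3.28 units (3.68 ± 0.56). The wells before and after this pair lay at 3.47 and 3.37 units, so the maximum belonged to a stretch of neighbouring wells.

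The lowest features lay among other low wells. TA61D12 had -0.84 units in replicate 1 and -1.29 units in replicate 2 (-1.06 ± 0.32, SD, n = 2), between neighbours at -0.35 and -0.27 units. TA56A08 had -1.15 and -0.76 units (-0.95 ± 0.27), between neighbours at -0.29 and -0.11 units. Low features came in long stretches: 614 of the 704 (87.2%) belonged to 79 runs of 3 wells or more, and 20 runs had 10 or more. The longest, TA66E11 to TA66H03, had 29 wells with means of -0.25 units in replicate 1 and -0.21 units in replicate 2. TA53D01 to TA53E11 had 23 wells at -0.19 and -0.06 units, and TA63H11 to TA64B09 had 23 wells at -0.08 and 0.09 units.

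**Figure D3:**
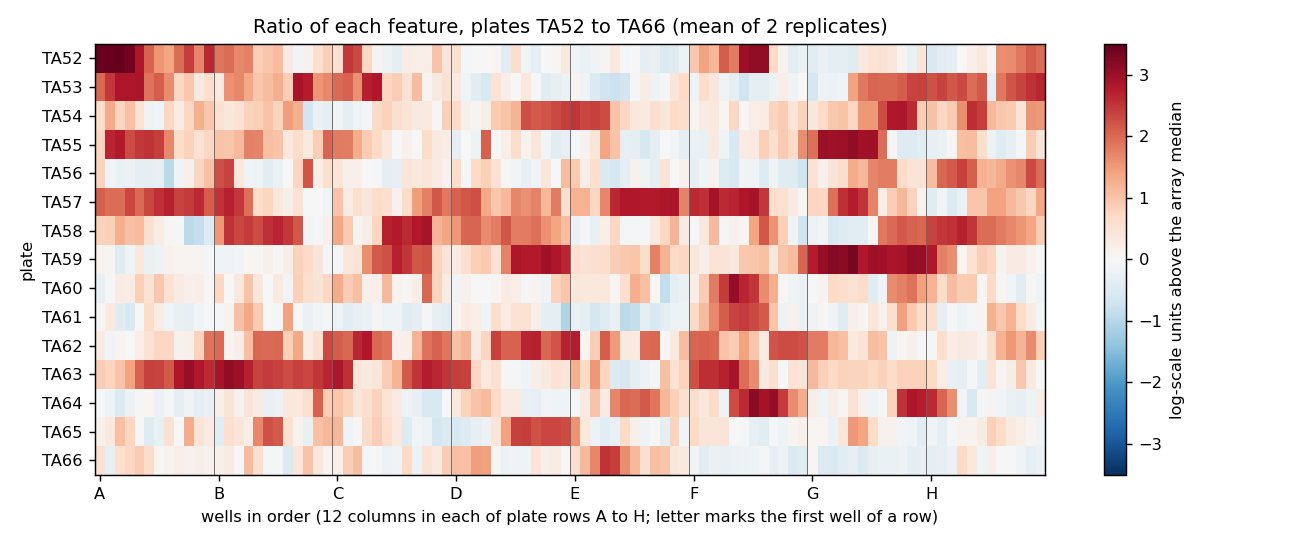
Each cell is 1 feature, with plates TA52 to TA66 from top to bottom and the 96 wells of a plate from left to right in row and column order. Colour gives the mean of both replicates in log-scale units above the array median (red above, blue below). High features form horizontal bars of up to 22 wells, some of which cross from plate to plate, such as the 20 wells from TA56H09 to TA57B04, with the longest pale stretch from TA66E11 to TA66H03.

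Intermediate features were more scattered than high or low ones. They formed 176 stretches with a median of 2 wells, against a median of 5 wells for the 64 stretches of high features and 3 wells for the 145 stretches of low features. Stretches of a single well held 87 of the 371 intermediate features (23.5%), against 3.01% of the high and 5.97% of the low features. A narrow class between 2 limits is left more readily from well to well, so these shares do not compare the classes in another sense.

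The intermediate features fell into 3 kinds by the wells on either side of their stretch. Those between low wells on both sides were the most numerous, with 189 features (50.9%) in 92 stretches. Those between a high and a low well numbered 152 (41.0%) in 73 stretches, and those between high wells on both sides numbered 30 (8.09%) in 11 stretches. By the class limits, 189 intermediate features lay between low wells, 52 of them as single wells, and 182 in stretches touching a high well. Their medians were 0.68 and 0.90 units in replicates 1 and 2 between low wells, 0.94 and 0.87 units between a high and a low well, and 1.07 and 1.11 units between high wells.

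The longest intermediate stretches lay between low wells. TA57H05 to TA58A06 had 14 wells, with means of 0.96 units in replicate 1 and 1.11 units in replicate 2. The wells on either side of it lay at -0.22 and 0.25 units. TA63G01 to TA63H01 had 13 wells, with means of 0.65 and 0.93 units and an SD over wells of 0.12 units, and was flanked by wells at 0.46 and 0.27 units. TA54B03 to TA54B09 had 7 wells at 0.73 and 1.16 units, and the well after it fell to -0.68 units. In these 3 stretches every well of replicate 2 lay above 0.5 units, while in replicate 1 the lowest wells were at 0.51, 0.42 and 0.29 units.

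Distance to the nearest high well split the intermediate features further. Directly beside a high well lay 91 (24.5%), with medians of 1.07 units in replicate 1 and 0.93 units in replicate 2. Another 91 lay 2 to 3 wells away, at 0.90 and 0.85 units. More than 12 wells away lay 81 (21.8%), at 0.70 and 0.95 units. In replicate 1 the level was lower at larger distances, whereas in replicate 2 the remotest features were about as high as those beside a high well.

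Low features near high ones were less low. The 31 low features directly beside a high well had medians of 0.18 units in replicate 1 and 0.04 units in replicate 2. At a distance of 2 to 3 wells, 100 features had 0.10 and 0.08 units, and the 227 more than 12 wells away had -0.09 and -0.07 units. Over all distances the medians span 0.27 units in replicate 1 and 0.15 units in replicate 2.

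Changes between low and high were often abrupt. Leaving intermediate wells aside, the sequence changed between low and high 105 times. In 32 changes (30.5%) a low and a high well stood side by side, in 31 (29.5%) 1 intermediate well lay between them, in 21 (20%) there were 2, and in another 21 (20%) there were 3 to 6. The largest step between adjacent wells was at TA62E01 and TA62E02. TA62E01 had 2.90 units in replicate 1 and 2.60 units in replicate 2, and TA62E02 had 0.05 and 0.14 units, a step of 2.65 units in the mean. With class limits drawn in by 0.25 units on both sides, 78 changes had no intermediate well and 90 intermediate features lay between low wells. Steps over 1 unit made up 115 of the 1439 (7.99%), and the median step was 0.26 units.

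Aligned at the 89 ends of the 45 runs of at least 3 high wells, without TA52A01, whose run went on before the zone, the outermost high well already lay below the wells inside. Its median was 2.08 units in replicate 1 and 1.81 units in replicate 2, against 2.49 and 2.03 units for the next well inward. The first well outside had medians of 0.86 units in both replicates, and the third had 0.46 and 0.58 units. Of the first wells outside, 76.4% were intermediate and 23.6% low. By definition that well is not high, so part of the fall in level is set by the alignment. At the third well 49.4% were low and 41.6% intermediate. Further out the quartiles widened as other high runs came into reach, with 33.7% high wells at a distance of 8 wells.

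**Figure D4:**
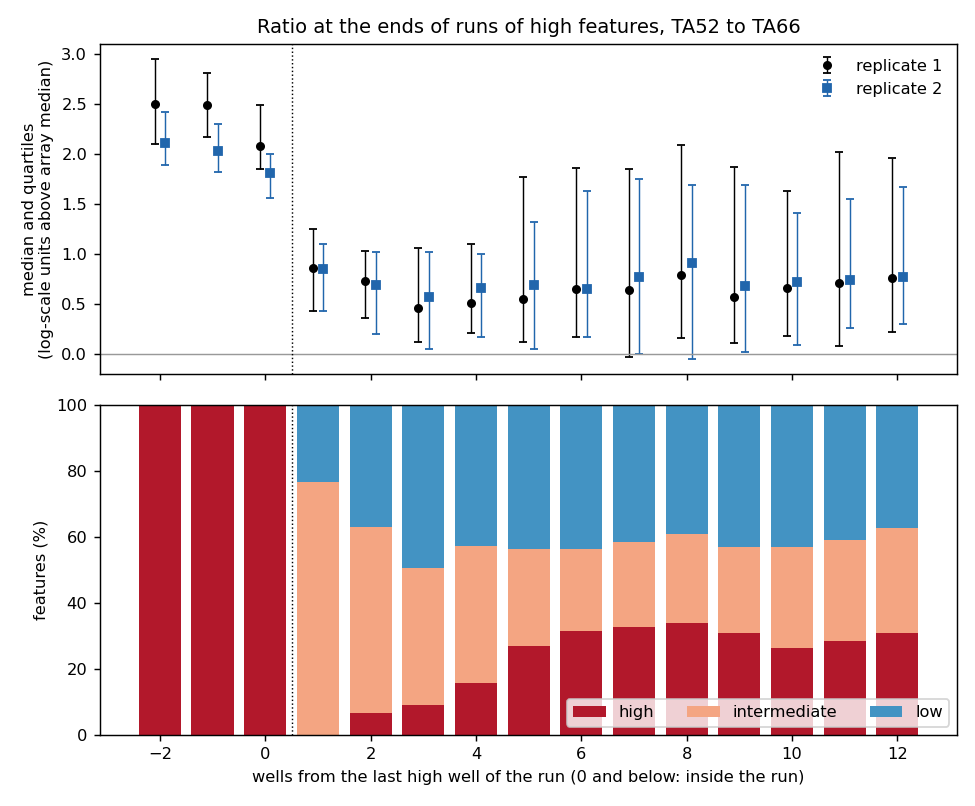
Features aligned at the 89 ends of 45 runs of at least 3 high features, with distance from the end in wells on the horizontal axis (0 and below inside the run). Upper panel: median and quartiles in replicate 1 (circles) and replicate 2 (squares), in log-scale units above the array median. Lower panel: share of each class (%). Medians drop from above 1.8 units at the last high well to 0.86 units at the next, where 76.4% of the features are intermediate. All wells inside a run are high by definition and the first well outside is not, so part of the drop is set by the alignment.

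Adjacent wells carried similar values over a short range. Pearson's r between a well and the next was 0.837 over 1439 pairs, 0.545 at a distance of 3 wells, 0.272 at 6 wells and 0.0133 at 24 wells. It was 0.837 in replicate 1 and 0.816 in replicate 2. Wells 12 apart, which lie in the same plate column in the next row, correlated at 0.176. Read down the columns in place of along the rows, the next well correlated at 0.152, and the longest high-ratio run had 7 wells. The likeness thus followed the row order. Steps across the 14 plate borders had a median of 0.29 units, steps across the 105 row ends within plates one of 0.33 units, and steps inside a plate row one of 0.26 units. These correlations are across features of the same arrays, which are not independent replicates.

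The replicates placed most features in the same class. Classed on each replicate alone, 1236 of the 1440 features (85.8%) agreed: 619 were low, 286 intermediate and 331 high in both. No feature was low in one replicate and high in the other. The largest group of unlike calls, 115 features, was low in replicate 1 and intermediate in replicate 2, while 37 went the other way. A further 43 were high in replicate 1 and intermediate in replicate 2, and 9 the reverse. Replicate 2 alone thus held more intermediate features, 30.8% against 23.1% in replicate 1.

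Of the 371 features that were intermediate by the mean, 286 (77.1%) were intermediate in both replicates and the other 85 in 1 of them. Low in replicate 1 were 53, and low in replicate 2 were 14. High features were lower in replicate 2, with a median of replicate 2 minus replicate 1 of -0.46 units (SD over features 0.25). This difference was -0.0063 units after quantile normalization and -0.054 units with replicate 2 rescaled. Both settings bring the replicates to a common range by construction. Low features differed by -0.0047 units in the median and intermediate features by 0.05 units. Pearson's r between the replicates was 0.949 over the 1440 features, and 0.541, 0.461 and 0.877 within the low, intermediate and high classes. The classes are cuts of the same values, which lowers these, and the points share arrays.

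Which replicate was higher was counted for each kind of intermediate feature. The choice of the zone by mean ratios did not use this contrast, but the kinds are cuts of the same values. Between low wells, replicate 2 was higher for 143 of 189 features (75.7%), by a median of 0.17 units over replicate 1 among all 189 (SD 0.30). Between a high and a low well it was higher for 51 of 152 (33.6%), at a median difference of -0.11 units (SD 0.31). With centring on the mode these shares were 84.6% between low wells and 54.9% between a high and a low well. With replicate 2 stretched to the range of replicate 1 they were 85.8% and 65.2%, and after quantile normalization 64.9% and 33.6%. Between a high and a low well, the sign of the median difference likewise depended on the scaling. It turned positive with centring on the mode and with the stretch (0.038 and 0.096 units). The gap between the kinds was 0.28 units, and 0.21 to 0.23 units under the other scalings tried. In TA31 to TA36, replicate 2 was higher for 64.7% and 30.4% of these kinds, in the same order. The shares were 50% and 44.1% in TA37 to TA51, and 65.6% and 52.7% in TA67 to TA99. With 1 difference between preparations the gap was not tested.

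**Figure D5:**
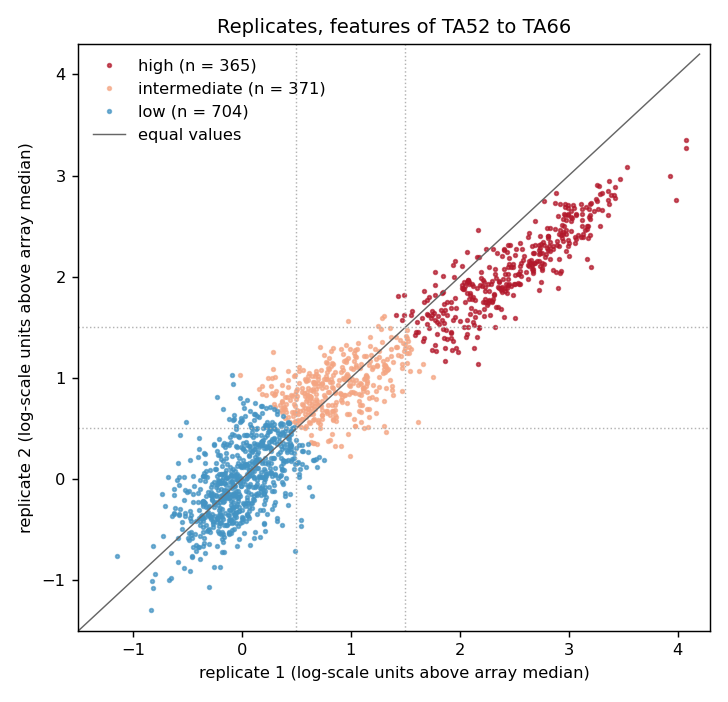
Each point is 1 of the 1440 features, with replicate 1 on the horizontal and replicate 2 on the vertical axis, in log-scale units above the array median. Colour gives the class by the mean, dotted lines the class limits and the solid line equal values. High features lie mostly below the line of equal values, with a median difference of -0.46 units, replicate 2 minus replicate 1, and no point is low in one replicate and high in the other.

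For a count by a fit across the array, limma tested the mean of both replicates against the array median over all 21727 features, with Benjamini-Hochberg adjustment at 0.05. Of the zone's features, 773 were called higher than the median (53.7%) and 57 lower (3.96%), against 28.9% and 11.7% of all features. On uncentred values the calls turned to the other side, with 340 above and 915 below in the zone and 3420 and 16995 over all features. The zone was chosen on this contrast, so the counts are a description. The higher calls comprised all 371 intermediate features, all 365 high ones and 37 low ones. The fit gave every feature the same SD of 0.26 units and so acted as a limit at 0.42 units, below the lower class limit.

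Set beside 3 other blocks of TA plates, the zone had the largest intermediate share on the centred values with the sign as deposited. It held 25.8% intermediate features, against 19.6% in TA31 to TA36, 13.1% in TA37 to TA51 and 15.4% in TA67 to TA99. High features made up 25.3%, against 14.8%, 81.1% and 5.24% in those blocks. Each replicate alone gave the same first place, with 23.1% in replicate 1 against 11.3% to 18.6% in the other 3 blocks, and 30.8% in replicate 2 against 14.8% to 22.9%. On the values as deposited, without centring, the zone had 21.4 percentage points fewer intermediate features than TA37 to TA51. With the sign of the ratio turned, 2.36% of the zone's features were intermediate, against 4.34% in TA31 to TA36, 0.0740% in TA37 to TA51 and 8.69% in TA67 to TA99, and no feature of these blocks was high. All blocks were delimited by these values, so the differences were not tested and the single replicates give no separate support for the zone's first place.

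The levels of high features also differed between these blocks. Their medians in the zone, 2.46 and 2.06 units in replicates 1 and 2, were close to those of TA31 to TA36 (2.53 and 2.14 units) and TA67 to TA99 (2.51 and 2.08 units). In TA37 to TA51 they were 3.004 and 2.49 units. Low features had medians of -0.02 and -0.01 units in the zone, against -0.10 and -0.13 units in TA31 to TA36, 0.16 and 0.26 units in TA37 to TA51, and -0.13 and -0.20 units in TA67 to TA99.

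The surroundings of intermediate features differed as well. In the zone 50.9% lay between low wells and 8.09% between high wells. In TA31 to TA36 these shares were 60.2% and 17.7%, in TA37 to TA51 they were 11.3% and 48%, and in TA67 to TA99 they were 82.0% and 2.86%. Such shares move with how many high wells a block holds. Changes between low and high without an intermediate well made up 30.5% in the zone, against 48% in TA31 to TA36, 30.2% in TA37 to TA51 and 52% in TA67 to TA99. Changes with at least 3 intermediate wells made up 20%, against 12%, 15.1% and 3%. By this cut, changes over at least 3 intermediate wells were most frequent in the zone (21 of 105) and least frequent in TA67 to TA99 (3 of 100). TA31 to TA36 had 3 of 25 and TA37 to TA51 had 8 of 53. Such counts also move with the intermediate share, which was largest in the zone, and were compared at these class limits only. By changes without an intermediate well, the zone and TA37 to TA51 were alike. These differences were not tested for the same reason.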

How the data were processed

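The authors deposited 1 ratio of IP to input per feature and array, on a log scale whose base is not given. Per the labels' protocols, the DNA was amplified before direct labelling with both dyes. For the platform, background correction, normalization and direction, no source used here gives details. Of 21800 listed features, 73 had no value. The deposited medians were -1.39 in replicate 1 and -1.15 in replicate 2, and each replicate was centred on its median over all measured features. Spot intensities were not analysed, so the distance to background is unknown, and the small number of arrays limits precision.

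Classes, runs of at least 3 wells, flanks, steps and correlations were computed in Python 3.11.15 (NumPy 2.4.6, SciPy 1.17.1, pandas 2.3.3). The fit across all features used limma 3.58.1 in R 4.3.3 and was checked on simulated data. The run finder was checked on a short made-up sequence of classes. The 2 highest and 2 lowest features with the same sign in both replicates are named, with the 5 longest high-ratio, 3 longest intermediate and 3 longest low runs. TA54 and the largest step were picked after their values were seen. The members, classes and rules were chosen with earlier results of these data known.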

Additional observations from a re-analysis of the deposited data

How the results depend on the processing

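Alternatives were other centring, normalization, limits, well orders and zone borders, and each replicate alone. On uncentred values limma's calls were 3420 above and 16995 below, of which 340 and 915 in the zone. The zone then had 244 intermediate features (16.9%), 144 high-ratio features and 21 runs, the longest of 13 wells, with 7 changes without an intermediate well. Its intermediate share then lay 11.6 points above TA31 to TA36 and -21.4 points from TA37 to TA51. Centred on the mode, the calls below were 816, with 16 in the zone, the intermediate share was 31.3%, and its distance to TA37 to TA51 was 19.8 points. At an adjusted p under 0.01 the calls below were 1218, with 26 in the zone. With the sign turned, an alternative added after the data were seen, the calls were 2542 above and 6272 below (57 and 773 in the zone), and 34 features of the zone (2.36%) were intermediate, 2.29 points from TA37 to TA51, -1.98 from TA31 to TA36 and -6.32 from TA67 to TA99. Class limits drawn in by 0.25 on both sides gave 197 intermediate features (13.7%), 90 of them between low wells, and 78 changes without an intermediate well, and limits of 0.4 and 2 gave 36.9%. The replicate difference of high features was -0.0063 units after quantile normalization and -0.054 after rescaling replicate 2, which both set a common range. Among intermediate features between a high and a low well the difference was 0.038 units with centring on the mode and 0.096 after rescaling. In column order, next wells correlated at 0.152, the longest run had 7 wells and 289 changes had no intermediate well. Spearman's rho of next wells was 0.80. Each replicate alone gave 0.816 to 0.837 for next wells and 11.8 to 16.0 points to TA37 to TA51. Causes were not tested, apart from those in an alternative's own construction. Leaving out a replicate leaves limma no test and no class agreement or replicate difference. No paired analysis was possible because there is a single group of 2 replicates.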
